A study of Mus musculus with 42 samples.

Results

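The 5 genes, of 18193 tested, that make, load, take up and break down GABA (Gad1, Gad2, Slc32a1, Abat and Slc6a11) were followed across 42 Affymetrix arrays of mouse striatum and hippocampus. They were chosen by name, with earlier results of these data known. Every probe set that the platform annotation assigned to one of them was taken, which gave 12 of 34945 probe sets with a single gene. GABA is the main inhibitory transmitter of the forebrain. Neurons make it from glutamate with the glutamate decarboxylases GAD67 (gene Gad1) and GAD65 (gene Gad2), and the vesicular transporter VGAT (gene Slc32a1) loads it into synaptic vesicles. After release, plasma membrane transporters take it up, among them GAT3 (gene Slc6a11), which is found mainly on astrocytes. The mitochondrial enzyme GABA transaminase (gene Abat) then breaks it down. The projection neurons of the striatum are themselves GABAergic, whereas in hippocampus GABA is made by a minority of cells, the interneurons.

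The arrays carried RNA of microdissected, snap-frozen brain regions from C57BL6 mice that were labelled PDE10A knockout (KO) or wild type (WT) and had been given a PDE10 inhibitor (PDE10i) or vehicle (Veh). PDE10A is a cyclic nucleotide phosphodiesterase that is abundant in striatal projection neurons. In striatum there were 4 KO PDE10i, 5 KO Veh, 6 WT PDE10i and 5 WT Veh arrays, and in hippocampus 5 KO PDE10i, 5 KO Veh, 6 WT PDE10i and 6 WT Veh arrays. The sources used here name neither the compound nor its dose, the time of dissection, the age of the mice or the way the knockout was made. They also do not say that each array of a group holds a different mouse, so a p-value reflects just the variation among these samples, part or all of which may be technical, and precision is limited by how many arrays there are.

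Before the results, limits of the labels and of the RNA have to be given. The signal of Pde10a itself was not lower in the samples labelled KO: in striatum it averaged 12.35 ± 0.22 in KO Veh and 12.32 ± 0.26 in WT Veh arrays (log2, SD, n = 5 each), and no statement on which part of the gene the probe set reads can be made here. A score over 15 genes of chromosome 17, the chromosome of Pde10a, which were picked by the genotype labels in the other region, put 8 of the 42 arrays nearer to the opposite genotype (the midpoint lay between the medians of the WT Veh and the KO PDE10i arrays): 1 KO striatum Veh, 3 WT striatum PDE10i, 2 KO hippocampus Veh and 2 WT hippocampus PDE10i arrays. Those medians were set to 0 and 1, so the score is a weaker check on the arrays of the groups that set it. WT striatum PDE10i replicates 15 (0.54) and 13 (0.59) lay close to the midpoint. Numbers 25 (KO Veh) and 14 (WT PDE10i) were doubted in both regions, but 26 (KO Veh), 12, 13 and 15 (WT PDE10i) in a single region. Groups are therefore called as labelled. The Gapdh difference of an array, which subtracts the 5' from the 3' Gapdh control on the log2 scale, is commonly read as a sign of RNA shortening. It was highest on 1 WT striatum Veh array (replicate 4, 1.05), on KO striatum PDE10i replicate 35 (0.67), on WT striatum PDE10i replicate 13 (0.66) and on KO striatum Veh replicate 29 (0.60). All 14 tested genes shared by striatal projection neurons were called higher in striatum than in hippocampus in WT Veh arrays, and 8 of 9 glutamatergic markers were called lower.

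Gad1 (chr2:70561303-70602014), Gad2 (chr2:22621015-22693877) and Slc32a1 (chr2:158607260-158615747) lie far apart on chromosome 2. Abat lies at chr16:8513429-8621568 and Slc6a11 at chr6:114131241-114249886, all in the mouse assembly GRCm38.p6. The 3 chromosome 2 genes, which together mark GABAergic neurons and whose signals moved together in these arrays, are shown by the 250 bases before the start that RefSeq's GRCm38.p6 promoter table gives for each, written 5' to 3' on the plus strand. For these genes that start lies inside the full gene span given above, so the stretches do not lie before the first base of the gene, and the transcript behind each start is not named in the table. Capitals mark matches to the motifs named after the sequences. The stretches are chr2:70561879-70562128 for Gad1, chr2:22622077-22622326 for Gad2 and chr2:158610508-158610757 for Slc32a1.
Gad1: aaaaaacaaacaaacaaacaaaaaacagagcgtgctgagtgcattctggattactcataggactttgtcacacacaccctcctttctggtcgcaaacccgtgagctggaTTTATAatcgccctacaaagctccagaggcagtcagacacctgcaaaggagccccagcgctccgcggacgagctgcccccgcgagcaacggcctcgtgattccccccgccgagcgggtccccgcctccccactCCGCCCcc
Gad2: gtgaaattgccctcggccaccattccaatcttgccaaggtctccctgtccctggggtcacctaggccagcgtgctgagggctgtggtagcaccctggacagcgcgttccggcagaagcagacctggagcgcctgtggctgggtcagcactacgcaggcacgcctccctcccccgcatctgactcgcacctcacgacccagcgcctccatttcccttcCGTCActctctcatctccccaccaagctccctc
Slc32a1: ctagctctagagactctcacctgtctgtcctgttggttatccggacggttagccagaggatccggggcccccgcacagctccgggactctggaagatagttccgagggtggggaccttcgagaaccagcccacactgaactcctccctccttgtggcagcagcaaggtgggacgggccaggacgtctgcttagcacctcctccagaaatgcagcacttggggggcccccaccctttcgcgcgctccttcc

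The 5 motifs below were searched on both strands of the 300-base windows that RefSeq's table holds (250 bases before the start and 50 after). The short cAMP response element TGACG (or CGTCA), which is also contained in the full palindrome TGACGTCA, was found in the Gad2 window at positions -33 to -29 and in no other member's window. It was present in 20.8% of all 32817 windows. The full palindrome (1.79% of windows) and the homeodomain core TAATTA (5.30%) were found in none of the 4 members with a window. The GC box GGGCGG (or CCGCCC), present in 35.6% of windows, was found in the windows of Gad1 and Slc6a11. The TATA sequence TATAAA (or TTTATA), present in 13.6%, was found in that of Gad1 at positions -141 to -136. None of the 5 motifs was found in the Slc32a1 window. The windows of Gad1, Gad2, Slc32a1 and Slc6a11 had a GC content of 60.0%, 61.3%, 63.3% and 72.3%, against a median of 52.7% over all windows. A match is a description of the letters and says nothing about binding.

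Where a gene had several probe sets, the brightest on average was its main one (1416561_at for Gad1, 1429589_at for Gad2, 1422756_at for Slc32a1, 1433855_at for Abat and 1433989_at for Slc6a11), and values are log2 signals after RMA. The levels of different genes cannot be compared on this scale, because each probe set has its own response. Within each gene, both groups of every comparison can.

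The regions were compared first. Gad1, Gad2, Slc32a1 and Abat were called higher in striatum than in hippocampus in each of the 4 treatment and genotype groups, and in each group the lowest striatal array lay above the highest hippocampal array. The mean of Slc6a11 was lower in striatum in all 4 groups, and the difference passed the test in KO Veh arrays, but its sign turned under some alternatives in the WT groups. Members called higher were 4 of 5 in KO PDE10i (10.6% of all genes were called higher there), 4 of 5 in KO Veh (12.5%), 4 of 5 in WT PDE10i (18.4%) and 4 of 5 in WT Veh arrays (15.9%). Genes whose striatal arrays all lay above the hippocampal ones made up 9.17% of all genes in KO PDE10i, 8.49% in KO Veh, 9.48% in WT PDE10i and 9.28% in WT Veh mice. The test was limma on the deposited log2 values of all 42 arrays, with Benjamini-Hochberg adjustment over 18193 genes and a threshold of 0.05, as in all comparisons between regions below.

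**Figure D1:**
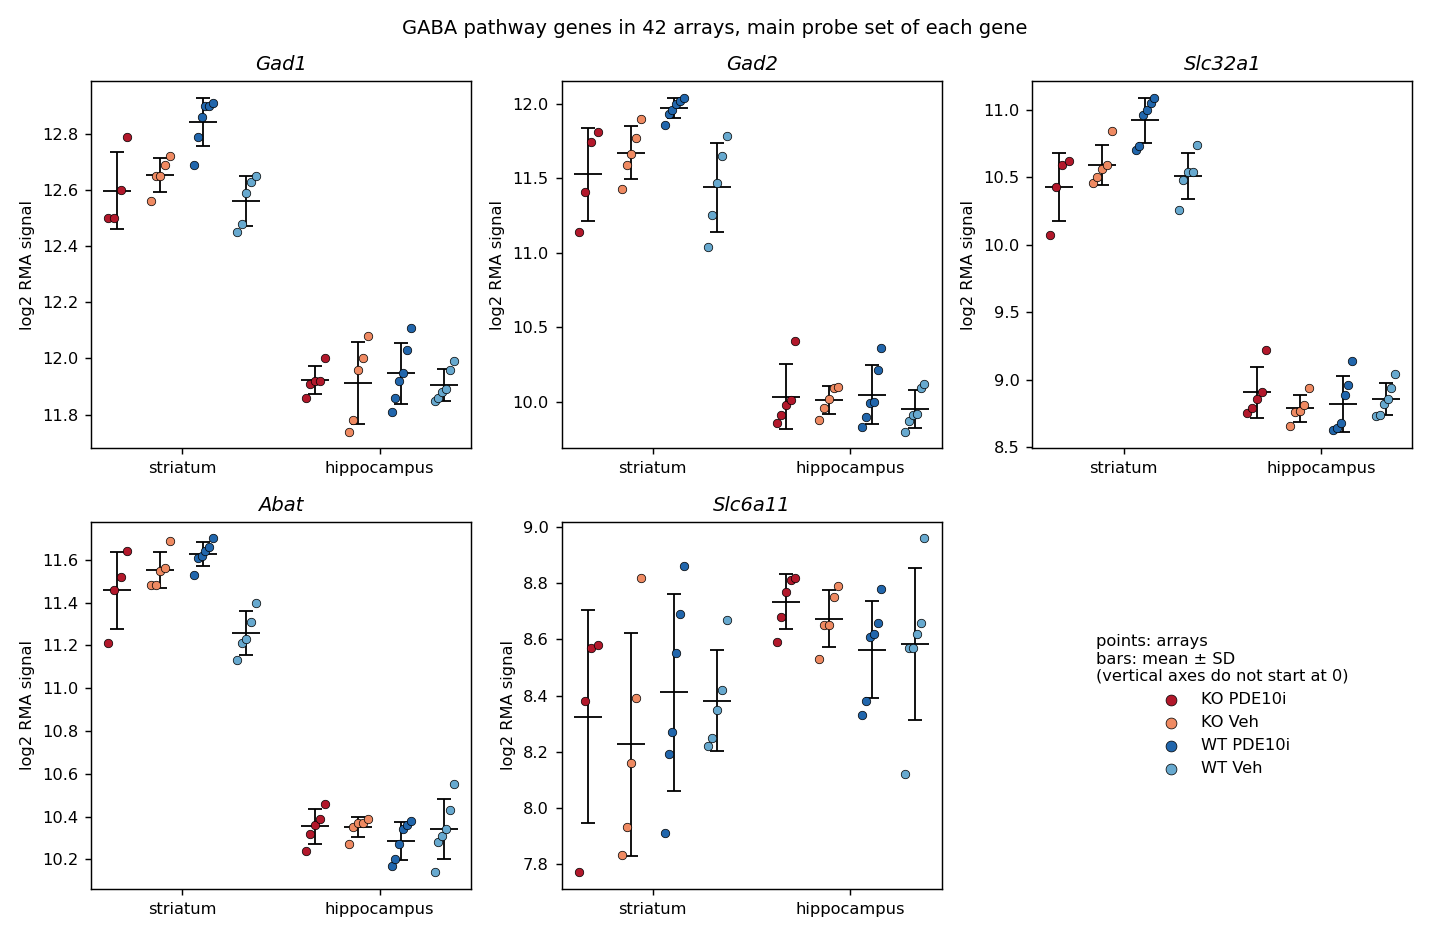
Log2 RMA signal of the main probe set of each of the 5 genes on 42 arrays (points), by group, with the mean and SD of each group (bars); vertical axes differ between panels and do not start at 0. Striatal arrays of Gad1, Gad2, Slc32a1 and Abat all lie above the hippocampal arrays, and the 6 WT striatum PDE10i arrays have the highest mean of these 4 genes.

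Of the synthesis enzymes, Gad1 in WT Veh mice averaged 12.56 ± 0.09 in striatum (SD, n = 5) and 11.91 ± 0.06 in hippocampus (SD, n = 6). Its difference was 0.66 ± 0.06 (log2, SE), or 1.58-fold, with an adjusted p of 2.42e-11. Gad2 in WT Veh mice averaged 11.44 ± 0.30 in striatum and 9.95 ± 0.13 in hippocampus, a difference of 1.49 ± 0.11 or 2.80-fold (adjusted p = 1.88e-13). The vesicular transporter gene Slc32a1 averaged 10.51 ± 0.17 in WT Veh striatum and 8.86 ± 0.12 in WT Veh hippocampus, a difference of 1.66 ± 0.10 or 3.15-fold (adjusted p = 2.29e-16). The GABA transaminase gene Abat averaged 11.26 ± 0.11 in WT Veh striatum and 10.34 ± 0.14 in WT Veh hippocampus, a difference of 0.92 ± 0.06 or 1.89-fold (adjusted p = 1.45e-14). Fewer cells of a type and less RNA per cell cannot be told apart in tissue samples such as these.

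The 4 regional differences were largest in the WT PDE10i mice. There Gad1 differed by 0.89, Gad2 by 1.92, Slc32a1 by 2.10 and Abat by 1.34 (log2, striatum minus hippocampus). In KO PDE10i mice the same differences were 0.68, 1.49, 1.52 and 1.10, and in KO Veh mice 0.74, 1.66, 1.80 and 1.20. Without the arrays of doubtful chromosome 17 score all 16 of these differences of Gad1, Gad2, Slc32a1 and Abat still passed, at 0.96, 1.91, 2.19 and 1.38 in WT PDE10i and 0.77, 1.61, 1.69 and 1.22 in KO Veh mice, the groups that lost arrays.

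Slc6a11, the astrocytic transporter gene, averaged 8.23 ± 0.40 in KO Veh striatum and 8.67 ± 0.10 in KO Veh hippocampus (SD, n = 5 each). It fell by 0.45 ± 0.16 on the log2 scale in striatum relative to hippocampus in these mice (adjusted p = 0.0347), and 14.8% of all genes were called lower there. In KO PDE10i mice the difference was -0.41 (adjusted p = 0.0739), with all 4 striatal arrays below all 5 hippocampal arrays, as for 13.6% of all genes. It was -0.15 in WT PDE10i mice and -0.20 in WT Veh mice (adjusted p = 0.479 and 0.327). In WT PDE10i mice it was 0.14 without the doubtful arrays and 0.30 with the glutamatergic covariate, and in WT Veh mice 0.12 with that covariate, none of which passed. The call in KO Veh mice held in 5 of the 10 alternatives other than leaving out single arrays. It ended without the arrays of doubtful chromosome 17 score (-0.35, adjusted p = 0.192). It also ended without KO striatum Veh replicate 25 (-0.37, adjusted p = 0.111), 29 (-0.35, 0.134) or 30 (-0.43, 0.0641), and without KO hippocampus Veh replicate 25 (-0.45, 0.053), 26 (-0.43, 0.0667) or 30 (-0.42, 0.0759). Of the 11 astrocyte markers, 7 were called lower and 1 higher in striatum in the same KO Veh contrast, with a median difference of -0.29. With the mean of these markers as a covariate the Slc6a11 difference was -0.32 (adjusted p = 0.360), and with the mean of the glutamatergic markers it was -0.15 (adjusted p = 0.739). The glutamatergic mean was 7.45 ± 0.23 in KO Veh striatum and 9.34 ± 0.08 in KO Veh hippocampus (log2, SD), without overlap. Fits with that covariate therefore cannot separate a difference between regions from one in these markers.

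The inhibitor was then compared with vehicle in WT striatum. All 6 WT PDE10i arrays had more Gad1, Gad2 and Abat signal than all 5 WT Veh arrays, and 4 of the 6 had more Slc32a1 signal than any WT Veh array. Abat passed the test, with a rise of 1.29-fold, whereas Gad2 and Slc32a1, with larger differences, and Gad1, with a smaller one, did not pass. The call was 1 of 5 members, against 0.181% of all genes (33 of 18193), and 4 of 5 members had an unadjusted p under 0.05, against 9.57% of all genes. These counts are descriptions, because the genes were chosen with earlier results known. Gad1, Gad2, Slc32a1 and Abat also ran together over the striatal arrays, so they are not 4 independent observations. The median difference of the 5 members was 0.37, against -0.00045 over all genes.

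Gad1 had 12.86, 12.91, 12.90, 12.69, 12.79 and 12.90 (log2) on the WT striatum PDE10i arrays, against 12.65, 12.48, 12.63, 12.59 and 12.45 on the WT striatum Veh arrays. The groups did not overlap, although WT PDE10i replicate 13 (12.69) and WT Veh replicate 1 (12.65) were close. The difference was 0.28 ± 0.06 (SE), or 1.21-fold, with an adjusted p of 0.0928. For groups that do not overlap with the inhibitor arrays above, the share over all genes was 0.973%.

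Gad2 had 11.93, 11.96, 12.02, 12.04, 11.86 and 12.00 on the WT striatum PDE10i arrays, against 11.78, 11.25, 11.47, 11.65 and 11.04 on the WT striatum Veh arrays. The inhibitor arrays were tight, within 0.07 (SD), while the vehicle arrays spread by 0.30 (SD). The difference was 0.53 ± 0.13, or 1.45-fold (adjusted p = 0.113).

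Slc32a1 had 11.09, 11.00, 11.05, 10.73, 10.70 and 10.96 on the WT striatum PDE10i arrays, against 10.48, 10.54, 10.54, 10.74 and 10.26 on the WT striatum Veh arrays. Vehicle replicate 4, at 10.74, lay above inhibitor replicates 13 and 14, so the groups overlapped. The difference was 0.41 ± 0.11, or 1.33-fold (adjusted p = 0.144).

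Abat had 11.61, 11.64, 11.70, 11.53, 11.62 and 11.66 on the WT striatum PDE10i arrays, against 11.31, 11.21, 11.40, 11.23 and 11.13 on the WT striatum Veh arrays. The lowest inhibitor array stood above the highest vehicle array by more than the SD of either group. The difference was 0.37 ± 0.07, or 1.29-fold, with an adjusted p of 0.0357. It was the 17th smallest p among all genes. The size held when single arrays were left out (0.34 to 0.41), but the adjusted p ran between 0.031 and 0.141 and stayed under the threshold for 3 of the 11 arrays left out; it was above it without vehicle replicates 1, 2, 4 or 5 and without inhibitor replicates 10, 11, 12 or 15. With the mean of both Abat probe sets the difference was 0.21 (adjusted p = 0.234), and when all probe sets were tested the adjusted p was 0.0574.

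Slc6a11 had 8.86, 8.55, 8.69, 7.91, 8.19 and 8.27 on the WT striatum PDE10i arrays, against 8.22, 8.67, 8.35, 8.25 and 8.42 on the WT striatum Veh arrays. The groups overlapped throughout. The difference was 0.03 ± 0.19, with a 95% interval of -0.36 to 0.42, and an adjusted p of 0.988.

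Without the 3 WT PDE10i arrays and the 1 KO Veh array of doubtful score, the differences in WT striatum were 0.33 for Gad1 (adjusted p = 0.0206), 0.53 for Gad2 (0.0801), 0.54 for Slc32a1 (0.0136) and 0.39 for Abat (0.0212). That made 3 of 5 members called, but 4.23% of all genes then passed, against 0.181% with all arrays. When each group gave up its array of highest Gapdh difference, the differences were 0.32 for Gad1 (adjusted p = 0.0244), 0.57 for Gad2 (0.0774), 0.51 for Slc32a1 (0.0534) and 0.38 for Abat (0.0436), and 0.473% of all genes passed.

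Markers of other cells moved alongside. The mean of 9 markers of cortical and hippocampal glutamatergic neurons was 6.45 ± 0.41 (6.18 to 7.26) in WT PDE10i striatum and 7.32 ± 0.83 (6.12 to 8.07) in WT Veh striatum (log2, SD). All 9 had a negative difference, with a median of -0.77, and none passed the test. All 10 vascular markers had a positive one, with a median of 0.28, and 12 of 14 genes shared by striatal projection neurons did, with a median of 0.16; none of these passed either. With the glutamatergic mean as a covariate in the same fit, the difference of Gad1 was 0.19, of Gad2 0.36, of Slc32a1 0.24 and of Abat 0.30 (adjusted p between 0.133 and 0.277), all positive, and none of the 5 members passed.

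**Figure D2:**
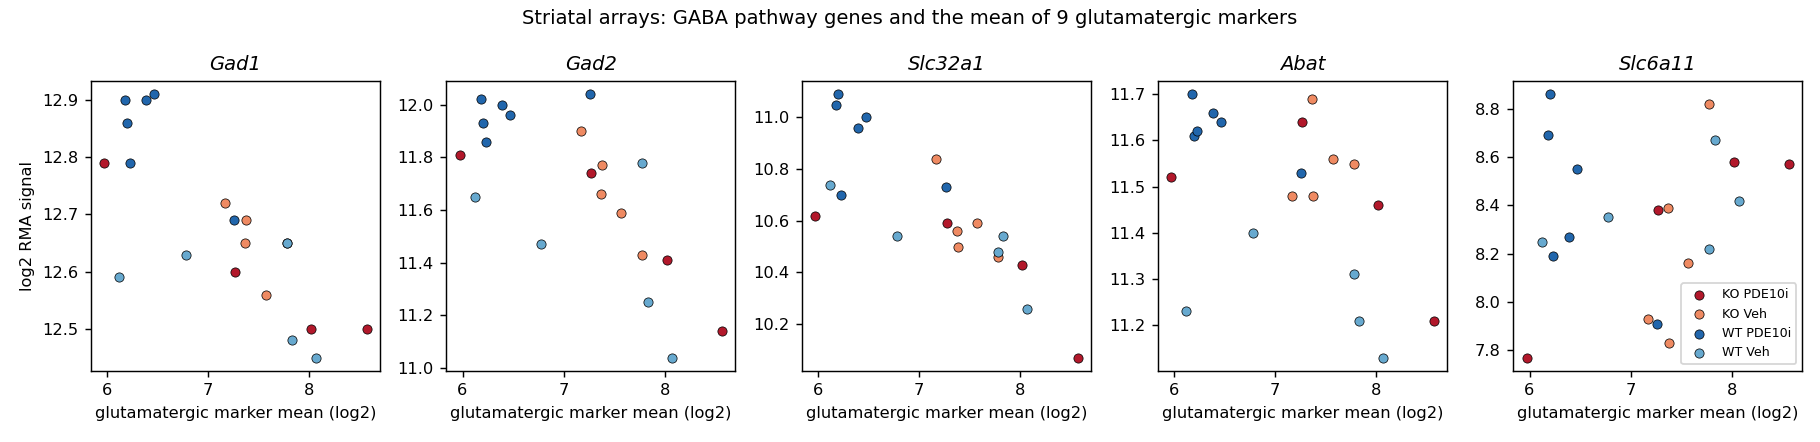
Log2 signal of each gene (vertical axes, not starting at 0) against the mean log2 signal of 9 glutamatergic markers (horizontal axis) on the 20 striatal arrays, by group. Gad1, Gad2, Slc32a1 and Abat are lower on arrays with more glutamatergic signal, Slc6a11 shows no such order, and 5 of the 6 WT PDE10i arrays lie at 6.18 to 6.47, where KO PDE10i replicate 35 (5.97) and WT Veh replicate 4 (6.12) lie as well.

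Across the 20 striatal arrays, which share the RMA run and the spread of dissection, the glutamatergic mean correlated with Gad1 at r = -0.79 (rho = -0.73), with Gad2 at r = -0.72 (rho = -0.70), with Slc32a1 at r = -0.81 (rho = -0.84) and with Abat at r = -0.52 (rho = -0.51). Taken within groups, as deviations from the group means, these were -0.75, -0.63, -0.73 and -0.53. Without the 2 arrays farthest from the median of the marker mean, they were -0.77, -0.67, -0.83 and -0.45. KO striatum PDE10i replicate 34 shows the pattern at its extreme: it had the highest glutamatergic mean of the striatal arrays (8.57) and the lowest Slc32a1 (10.07) of them. Its Gad2 (11.14) was the lowest but for WT Veh replicate 5 (11.04), which had the second highest glutamatergic mean, 8.07. WT Veh replicate 4, the array with the highest Gapdh difference, stood off this pattern for Gad1, Gad2 and Abat but not for Slc32a1. Its glutamatergic mean was low (6.12), yet it read 12.59 for Gad1 and 11.23 for Abat, within the range of the other WT Veh arrays. Its Gad2 was also within their range, above the WT Veh median of 11.47 but below every WT PDE10i array (11.86 or more). Its Slc32a1 (10.74) was the highest of the WT Veh arrays. The mean of the shared projection neuron genes correlated positively with the same genes, at 0.69 for Gad1, 0.81 for Gad2, 0.84 for Slc32a1 and 0.53 for Abat. Their part in the drug difference was not tested beyond the covariate fit given above.

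The inhibitor was also compared with vehicle in KO striatum. Gad1 had 12.50, 12.79, 12.60 and 12.50 on the KO PDE10i arrays, against 12.72, 12.65, 12.65, 12.69 and 12.56 on the KO Veh arrays. Abat had 11.21, 11.52, 11.64 and 11.46 on the KO PDE10i arrays, against 11.48, 11.55, 11.69, 11.48 and 11.56 on the KO Veh arrays. Both genes overlapped between the groups. The differences (log2, 95% interval) were -0.06 (-0.21 to 0.09) for Gad1, -0.14 (-0.43 to 0.15) for Gad2, -0.16 (-0.41 to 0.08) for Slc32a1, -0.09 (-0.26 to 0.07) for Abat and 0.10 (-0.33 to 0.53) for Slc6a11. Without the doubtful striatal arrays they were, in the same order of genes, -0.042, -0.084, -0.10, -0.11 and 0.025. Called were 0 of 5 members and 0% of all genes by limma, and 0 of 5 members had an unadjusted p under 0.05, against 1.41% of all genes.

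The difference between the genotypes in the inhibitor effect (WT minus KO) was then tested itself in striatum. It was 0.34 ± 0.09 for Gad1, 0.67 ± 0.19 for Gad2, 0.58 ± 0.16 for Slc32a1 and 0.46 ± 0.10 for Abat, and -0.07 ± 0.28 for Slc6a11 (log2, SE). The adjusted p was 0.257 for Abat and between 0.443 and 0.994 for the others. By limma 0 of 5 members passed, as did 0% of all genes, whereas 4 of 5 members, against 7.40% of all genes, had an unadjusted p under 0.05. Without the doubtful arrays the same contrast was 0.37 for Gad1 (adjusted p = 0.135), 0.62 for Gad2 (0.278), 0.64 for Slc32a1 (0.082), 0.50 for Abat (0.0812) and 0.29 for Slc6a11 (0.835). A dependence of the inhibitor effect on genotype was thus not detectable for these genes after adjustment. On simulated data this contrast recovered 42% of changes of 0.5 log2, so a missing call does not show that the effects were equal.

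KO and WT mice given vehicle were compared next. Abat was the one member whose groups stood apart in striatum: 11.48, 11.55, 11.69, 11.48 and 11.56 on the KO Veh arrays, against 11.31, 11.21, 11.40, 11.23 and 11.13 on the WT Veh arrays. All 5 KO arrays lay above all 5 WT arrays, as for 0.533% of all genes. The difference was 0.29 ± 0.07, or 1.23-fold, and did not pass (adjusted p = 0.151). The differences of the other genes were 0.10 for Gad1, 0.23 for Gad2, 0.08 for Slc32a1 and -0.16 for Slc6a11, with adjusted p of 0.945 or more. By limma 0 of 5 members were called, against 0.137% of all genes, and 1 of 5 had an unadjusted p under 0.05, against 5.94%. The inhibitor effect in WT striatum and this difference share the WT Veh arrays, so the 2 positive values for Abat, 0.37 and 0.29, are not independent. Without the doubtful KO Veh array and the other doubtful arrays of the fit, Abat differed by 0.31 (adjusted p = 0.130), Gad1 by 0.079, Gad2 by 0.17, Slc32a1 by 0.015 and Slc6a11 by -0.082.

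**Figure D3:**
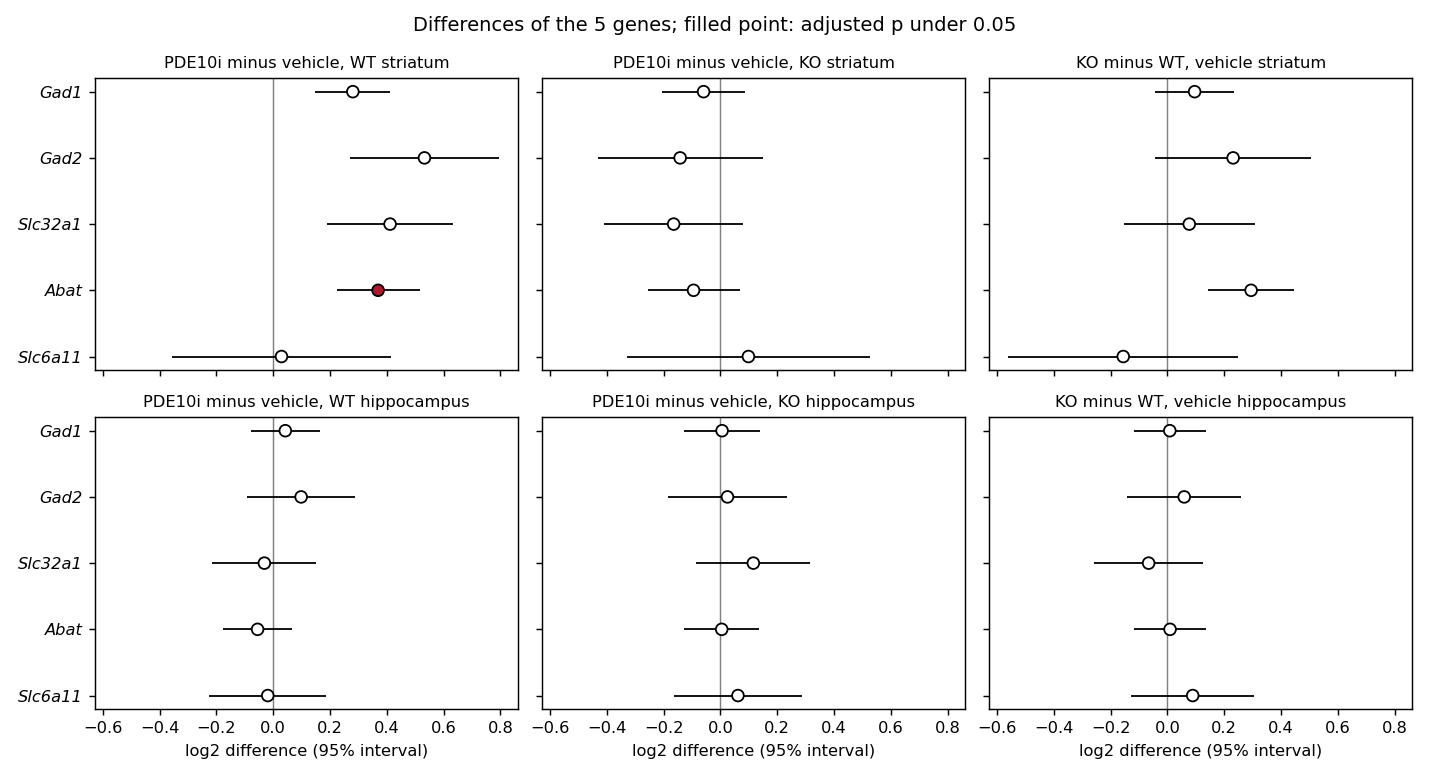
Log2 differences of the 5 genes with 95% intervals (horizontal lines) in 6 comparisons within a region; the filled point passed the threshold of 0.05 after adjustment over 18193 genes. Abat in WT striatum, PDE10i minus vehicle, is the single filled point. Gad1, Gad2 and Slc32a1 have intervals above 0 in the same panel, as has Abat for KO minus WT in vehicle striatum, and all hippocampal intervals include 0.

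In hippocampus none of the 5 genes differed by more than 0.12 (log2) in any of the 3 comparisons of groups. Abat had 10.20, 10.38, 10.36, 10.34, 10.27 and 10.17 on the WT PDE10i arrays, against 10.28, 10.31, 10.43, 10.14, 10.34 and 10.55 on the WT Veh arrays, and the groups overlapped. The inhibitor difference in WT hippocampus was 0.04 for Gad1, 0.10 for Gad2, -0.03 for Slc32a1, -0.06 for Abat (95% interval -0.18 to 0.07) and -0.02 for Slc6a11. In KO hippocampus it lay between 0.0047 for Abat and 0.12 for Slc32a1. KO minus WT in vehicle hippocampus lay between -0.07 for Slc32a1 and 0.09 for Slc6a11. Called were 0 of 5 members and 0% of all genes in each of these comparisons and in the genotype difference of the inhibitor effect. An unadjusted p under 0.05 was found for 0 of 5 members each time, against 10.7% of all genes for the inhibitor in WT, 3.82% for it in KO, 6.62% for KO against WT and 11.8% for the genotype difference.

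The inhibitor effect in WT mice was compared between the regions by its own contrast. It was larger in striatum by 0.42 ± 0.09 for Abat (log2, SE), with an adjusted p of 0.023. The same contrast was 0.24 ± 0.08 for Gad1 (adjusted p = 0.229), 0.43 ± 0.16 for Gad2 (0.239), 0.44 ± 0.14 for Slc32a1 (0.167) and 0.05 ± 0.21 for Slc6a11 (0.946). The call was 1 of 5 members, against 0.214% of all genes, and 4 of 5 had an unadjusted p under 0.05, against 12.7%. Without the doubtful arrays Abat differed by 0.46 (adjusted p = 0.0149), but with the mean of both Abat probe sets it differed by 0.15 and did not pass (adjusted p = 0.496). The Abat call ended without WT hippocampus Veh replicate 3 (0.41, adjusted p = 0.0543), WT striatum Veh replicate 5 (0.39, 0.0638) or WT striatum PDE10i replicate 12 (0.41, 0.0507). The glutamatergic markers differed between regions in the same contrast by a median of -0.60, with 0 of 9 positive and none called; with their mean as a covariate Abat differed by 0.35 (adjusted p = 0.0495). The corresponding contrast for KO against WT in vehicle mice was 0.29 ± 0.09 for Abat (adjusted p = 0.706) and called 0 of 5 members, against 0.0495% of all genes. An unadjusted p under 0.05 was found for 1 of 5 members, against 5.29%.

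Whether the signals of the 2 decarboxylase genes moved unequally was tested by their difference on each array, which removes a shift of equal log2 size in both. Each probe set has its own response, so this compares signals and not transcript amounts. Gad2 minus Gad1 averaged -0.87 ± 0.11 in WT PDE10i striatum (SD, n = 6) and -1.12 ± 0.22 in WT Veh striatum (SD, n = 5). The change of 0.25 had a p of 0.0606 in an exact two-sided permutation test, and 0.364 after adjustment over the 6 comparisons within regions. The other 5 changes lay between -0.08 and 0.14, with adjusted p between 0.552 and 0.841. An unequal change of the Gad1 and Gad2 signals was not detectable.

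The other probe sets of each gene were read apart. The second Gad1 probe set (1416562_at) followed the main one weakly, at r = 0.22 over the 20 striatal arrays. Its signal minus that of the main probe set ran from -3.13 to -1.12 there, and this difference fell as the Gapdh difference of the array rose, with r = -0.96 and rho = -0.91 over the 20 striatal arrays and -0.92 without the 2 arrays of most unusual Gapdh difference. In the 22 hippocampal arrays r was -0.86 (rho = -0.82). The lowest value of the second probe set, 9.46, was on WT striatum Veh replicate 4, the array with the highest Gapdh difference, while the main Gad1 probe set read 12.59 on that array, within the range of its group. The main probe set itself correlated with the Gapdh difference at r = 0.06 in striatum and 0.01 in hippocampus. The second Gad1 probe set differed by 0.48 ± 0.30 between WT PDE10i and WT Veh striatum (adjusted p = 0.783 over all probe sets), with an SD within groups of 0.42 and 0.69.

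**Figure D4:**
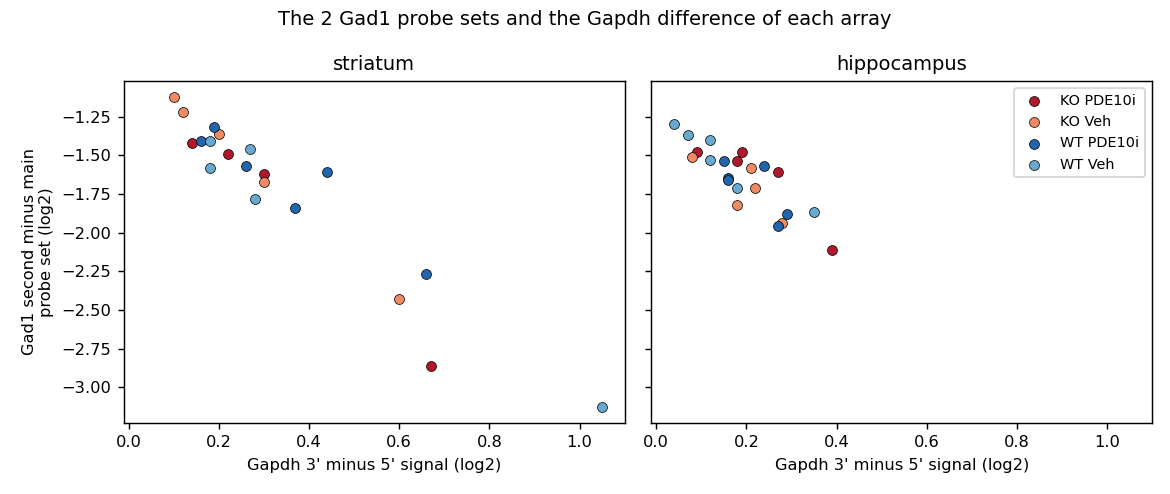
Second minus main Gad1 probe set (vertical axis, log2) against the Gapdh 3' minus 5' difference (horizontal axis, log2) of each array, in striatum and hippocampus. The 4 striatal arrays with a Gapdh difference of 0.60 or more have the lowest values, down to -3.13, in 4 different groups.

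For Gad2 the second probe set (1421978_at) ran with the main one at r = 0.52 in striatum. It averaged 9.42 ± 0.32 in WT PDE10i striatum and 8.95 ± 0.43 in WT Veh striatum, a difference of 0.48 ± 0.19 (adjusted p = 0.521), near the 0.53 of the main probe set. Its difference from the main one correlated with the Gapdh difference at r = -0.01 in striatum and at r = -0.51 (rho = -0.47) in hippocampus, where the pair of Gad2 probe sets correlated with each other at r = -0.04. The 3 further probe sets of Slc32a1 (1456457_at, 1447574_s_at and 1447573_at) averaged 6.29, 5.59 and 4.97 over the 42 arrays, against 9.70 for the main one, and differed by -0.06, 0.01 and 0.18 between WT PDE10i and WT Veh striatum. Those of Abat (1422226_at, mean 4.68) and Slc6a11 (1453871_at, mean 3.67) were dim as well, and differed by 0.05 and -0.07. Slc6a11 was the member whose main probe set ran lower on striatal arrays with a high Gapdh difference (r = -0.50, rho = -0.55): KO PDE10i replicate 35 had 7.77, KO Veh replicate 29 had 7.83 and WT PDE10i replicate 13 had 7.91, but KO Veh replicate 25 had 7.93 with a Gapdh difference of 0.20. In hippocampus it was Abat whose main probe set ran lower with a high Gapdh difference (r = -0.48, rho = -0.46), while Slc6a11 had an r of 0.15. The Gapdh difference averaged 0.21 in WT PDE10i and 0.15 in WT Veh hippocampus.

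Among themselves, Gad1, Gad2 and Slc32a1 ran closely together over the striatal arrays, with r between 0.83 and 0.86, and Abat followed them at 0.64 to 0.75. As deviations from group means these correlations were 0.64 to 0.69 and 0.52 to 0.54. Slc6a11 stood apart, at r between -0.33 and 0.04 with the other 4 genes. In hippocampus, where groups barely differed, Gad2 and Slc32a1 kept an r of 0.77 and Gad1 and Gad2 one of 0.70, that of Gad1 and Slc32a1 was 0.50, and Abat correlated with each of these 3 at 0.31 to 0.38. Without the 2 arrays farthest from the median of Gad2, the hippocampal r of Gad1 and Gad2 was 0.64. Without the 2 arrays farthest from the median of Slc32a1, that of Gad2 and Slc32a1 was 0.51 and that of Gad1 and Slc32a1 was 0.29. All arrays share the normalization, so these are descriptions.

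Genes with the most similar signal were named by the highest Pearson r over the arrays of a region, among genes brighter than the median gene. In striatum Gad1 was most like Bag3 (r = 0.88), Bzw2 and Gad2. Gad2 was most like Penk (0.91), which codes for the proenkephalin of indirect pathway projection neurons, then Ptpro and Shkbp1. Slc32a1 was most like Nrsn2 (0.94), Nudt16l1 and Lmo2, Abat was most like Ppp1r7 (0.89), Dhx40 and Dgat2, and Slc6a11 was most like Tril (0.87), Pcid2 and Prmt3. In hippocampus Dlx1, a homeobox gene of forebrain GABA neurons, was the most similar gene of both Slc32a1 (0.90) and Gad2 (0.86), and the other neighbours of Gad2 were Tmem158 and Slc32a1. Gad1 was most like Tmem158 (0.77), Rad21 and Gabrg1, Abat like Acly (0.78), Nap1l1 and Ndrg2, and Slc6a11 like Msh3 (0.72), Armcx2 and Pabpn1. The mean of 12 forebrain GABA neuron transcription factors ran with Slc32a1 at 0.86 and with Gad2 at 0.85 over the 22 hippocampal arrays, but at 0.53 and 0.32 over the 20 striatal arrays. Without the 2 arrays farthest from the median of that mean, the hippocampal values were 0.69 and 0.61.

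The rest of the GABA pathway was read from lists of other transporters, breakdown and precursor enzymes, receptor subunits, postsynaptic and chloride transport genes and transcription factors of forebrain GABA neurons. No gene of these 6 lists passed the test in any comparison within a region or between effects. For the inhibitor in WT striatum the gene with the smallest p of each list was Slc6a6, a taurine transporter that also carries GABA, at 0.23 (adjusted p = 0.707), Slc1a1, a neuronal glutamate transporter, at 0.24 (0.165), Gabrg3, a GABA-A receptor subunit, at 0.42 (0.320), Kctd8, an auxiliary subunit of GABA-B receptors, at 0.46 (0.203), Slitrk3, a postsynaptic adhesion protein, at 0.12 (0.448), and Six3, a homeobox factor, at 0.52 (0.282). Of 14 breakdown and precursor genes, 5 had an unadjusted p under 0.05, against 9.57% of all genes. Of the same 14 genes, 5 had a positive difference, and the median was -0.04. Of 15 GABA-A receptor subunits, 1 had an unadjusted p under 0.05, with a median difference of 0.02.

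Between regions the same lists were mixed. In WT Veh mice 5 of 15 GABA-A receptor subunits were called higher and 3 lower in striatum than in hippocampus, where 15.9% of all genes were called higher and 17.9% lower. Gabrd, the delta subunit of extrasynaptic receptors, was higher by 1.87 and Gabrg3 by 1.09, while Gabra5, the alpha5 subunit typical of hippocampal pyramidal cells, was lower by a log2 difference of -2.99 and Gabrb1 by one of -0.65. Of 12 forebrain GABA neuron transcription factors, 6 were called higher and 1 lower, led by Six3 (3.56), Isl1 (3.09), Meis2 (2.76) and Dlx6 (1.99). Kctd8 differed by 1.65, Slc6a6 by 0.71 and Pdxk, which makes the pyridoxal phosphate cofactor that both decarboxylases and GABA transaminase need, by 0.65. Iqsec3, a protein of inhibitory postsynapses, differed by -1.04 and Slc1a1 by -0.53. Of 16 markers of GABAergic interneurons 4 were called higher and 7 lower in striatum, with a median difference of -0.31, whereas Gad1, Gad2 and Slc32a1 were called higher. In KO PDE10i, KO Veh and WT PDE10i mice Gabra5 differed by -2.01, -2.21 and -2.52, and Gabrd by 1.96, 2.01 and 2.05.

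In the order of group means, WT striatum PDE10i came first for Gad1, Gad2, Slc32a1 and Abat, followed by KO striatum Veh. Each neighbour within the striatal groups overlapped the next in single values, as did each neighbour within the hippocampal groups. The one gap without overlap for these 4 genes lay between the lowest striatal and the highest hippocampal group, of 0.61 for Gad1, 1.39 for Gad2, 1.52 for Slc32a1 and 0.90 for Abat. For Slc6a11 the 4 hippocampal groups came first, with means between 8.56 and 8.73, and the 4 striatal groups lay between 8.23 and 8.41, with overlap between all neighbours.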

How the data were processed

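The authors deposited one table of log2 values for 45101 probe sets on 42 Affymetrix arrays. The submitters' processing notes name RMA. Per the labels' protocols total RNA was extracted with Trizol and labelled as biotin cRNA. The values ran from 2.55 to 15.1, with array medians of 6.05 to 6.12, and were used as deposited. Of the probe sets 34945 carried 1 gene in the platform annotation, 932 several and 9160 none, and 64 were controls. Symbols of 34741 probe sets were updated through RefSeq (GRCm38.p6) and 204 kept the old one, which gave 18193 genes, each represented by its probe set with the highest mean.

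Groups were taken from the sample titles. limma 3.58.1 (R 4.3.3; lmFit and eBayes) was fitted to the 4 groups of a region together, and to all 8 groups for contrasts between regions, with no covariate and Benjamini-Hochberg adjustment over all genes at 0.05. Tested on simulated data for the inhibitor in WT striatum (18193 genes), it recovered 67% of changes of 0.5 log2 and 98% of changes of 1 log2, and 7.3% of its calls were false. Exact permutation tests used scipy 1.17.1. The 5 genes and all lists (201 entries, 181 tested) were chosen with earlier results of these data known. Named besides the 5 genes were those of the GABA lists past the threshold within a region, up to 4 per list with the largest size between regions, otherwise the one with the smallest p, and the 3 most similar genes per region (clone names left out). Alternatives changed the probe set rule, the filter on dim genes, the moderation, array weights, single arrays, doubtful arrays, marker covariates, the groups in the fit and a replicate block. The most alike pair of arrays differed by an SD of 0.151 (r = 0.998), so none was treated as deposited repeatedly.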

Additional observations from a re-analysis of the deposited data

Results flagged for a closer look

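Gad2 on KO hippocampus PDE10i replicate 35 read 10.41 (log2), while the other 4 arrays of that group read 9.86 to 10.01. The array stood apart by Dixon's test for a single far value. Of 40 groups tested, chance marks about 1 in 20. The same array had the highest Slc32a1 of its group (9.22) and the highest Gapdh 3' minus 5' difference of the hippocampal arrays (0.39).

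The inhibitor effect on Abat in WT mice differed between striatum and hippocampus by 0.42 (log2) in a test of the difference itself, with limma's adjusted p of 0.023.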

How the results depend on the processing

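The regional calls of Gad1, Gad2, Slc32a1 and Abat kept their direction and side of the threshold under every alternative run. The alternative over all probe sets read each gene by its main one, so it did not test the others. The second Gad1 probe set did not pass in WT Veh (0.31, adjusted p = 0.322) or KO PDE10i mice (0.47, 0.203). It passed in KO Veh (0.896) and WT PDE10i mice (0.934). The second Gad2 probe set passed in all 4 groups. The dim Abat probe set passed in none, nor did 1456457_at or 1447574_s_at of Slc32a1. The Slc32a1 probe set 1447573_at passed except in KO PDE10i mice (-0.023). For the inhibitor in WT striatum, 1 of 5 genes passed, and the count was 0 with the mean of all probe sets of a gene, 0 over all probe sets, 0 with the glutamatergic covariate, 2 without the highest Gapdh difference of each group, 3 without the arrays of doubtful chromosome 17 score, 4 with array weights, and 0 to 1 when single arrays were left out. For KO against WT in vehicle striatum it was 1 with array weights, against 0. For the region difference of the inhibitor effect in WT it was 0 with the gene mean, 2 with array weights, 2 without doubtful arrays and 0 to 1 with single arrays left out, against 1. Over all genes the inhibitor in WT striatum gave 33 calls, against 19 with the gene mean, 21 over all probe sets, 20 without dim genes, 20 with only the groups compared, 11 with the glutamatergic covariate, 86 without the highest Gapdh difference, 195 with array weights and 769 without doubtful arrays. For KO against WT in vehicle striatum the 25 calls became 87 with array weights, 145 without doubtful arrays, 15 with the astrocyte covariate, 9 with only the groups compared and 0 without the highest Gapdh difference. The genotype difference in striatum gave 0 calls, against 4 with the gene mean, 10 without the highest Gapdh difference and 158 without doubtful arrays, and the inhibitor in WT hippocampus gave 0, against 154 with array weights. KO against WT in vehicle hippocampus gave 0, against 15 without doubtful arrays. The region difference of the inhibitor effect in WT gave 39, against 23 with the gene mean, 119 without the highest Gapdh difference, 127 with the glutamatergic covariate, 617 with array weights and 785 without doubtful arrays, and that of the knockout label gave 9, against 0, 23 and 34 without the highest Gapdh difference, with array weights and without doubtful arrays. With the glutamatergic covariate the regional contrasts gave 1790 calls in KO PDE10i, 2152 in KO Veh, 1971 in WT PDE10i and 1575 in WT Veh mice, against 4745, 4967, 6477 and 6160 without it. The values of that covariate did not overlap between striatal and hippocampal arrays, so these regional fits cannot separate it well from region. The cause of these shifts was not tested.

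None of the values that turned sign was called. With the gene mean of probe sets, the inhibitor in WT hippocampus gave -0.048 for Gad1, -0.077 for Gad2, 0.012 for Slc32a1, 0.063 for Abat and 0.016 for Slc6a11, and in WT striatum -0.02 for Slc6a11. KO against WT in vehicle hippocampus gave -0.083 for Gad1, -0.032 for Gad2 and 0.05 for Slc32a1. The inhibitor in KO hippocampus gave -0.04 for Gad2, -0.028 for Slc32a1 and -0.043 for Abat. The genotype difference in hippocampus gave -0.09 for Gad1, -0.037 for Gad2, 0.04 for Slc32a1 and 0.11 for Abat, and the region difference of the inhibitor effect in WT -0.036 for Slc6a11. Gad2 minus Gad1 changed by -0.028 for KO against WT in vehicle striatum, 0.033 for the inhibitor in KO striatum, -0.029 for it in WT hippocampus and -0.081 for it in KO hippocampus. With array weights, KO against WT in vehicle hippocampus gave -0.0027 for Gad1 and -0.016 for Abat, and the inhibitor in KO hippocampus -0.024 for Gad2 and -0.0054 for Abat. Without doubtful arrays, Slc6a11 gave 0.29 for the genotype difference in striatum and 0.14 for striatum against hippocampus in WT PDE10i mice, Slc32a1 gave 0.00093 for the inhibitor in WT hippocampus, and Gad1 gave -0.037 for KO against WT in vehicle hippocampus and -0.025 for the genotype difference there. Without the highest Gapdh difference, KO against WT in vehicle hippocampus gave -0.024 for Gad1 and -0.032 for Abat, and the inhibitor in KO hippocampus -0.05 for Gad2. With the glutamatergic covariate, Slc6a11 gave 0.074 for the genotype difference in striatum, and 0.30 and 0.12 for striatum against hippocampus in WT PDE10i and WT Veh mice, and Abat gave -0.0045 for KO against WT in vehicle hippocampus. With the astrocyte covariate, Slc6a11 gave 0.029 for KO against WT in vehicle striatum, Slc32a1 0.035 for the inhibitor in WT hippocampus and Gad1 -0.0027 for it in KO hippocampus.

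With single arrays left out, Slc6a11 ran from -0.06 to 0.13 for the inhibitor in WT striatum, -0.00089 to 0.28 in KO striatum, -0.11 to 0.057 in WT hippocampus, -0.26 to 0.03 for the genotype difference in striatum, -0.0037 to 0.16 for KO against WT in vehicle hippocampus and -0.041 to 0.15 for the region difference of the inhibitor effect in WT. Gad1 ran from -0.038 to 0.049 for the inhibitor in KO hippocampus, -0.0061 to 0.08 for the genotype difference in hippocampus and -0.034 to 0.052 for KO against WT in vehicle hippocampus. Abat ran from -0.02 to 0.033 for the inhibitor in KO hippocampus and -0.032 to 0.052 for KO against WT in vehicle hippocampus, Gad2 from -0.07 to 0.07 for the inhibitor in KO hippocampus, and Slc32a1 from -0.094 to 0.0077 for it in WT hippocampus.

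Numbers in the titles recur in both regions. Over 20 pairs of arrays with the same number, the deviations from group means correlated at -0.38 to 0.31, 6 pairs lay over 0.1 and 4 arrays correlated best with their own number, so the numbers were not used as pairs. Whether arrays of the same number come from the same mouse cannot be told from this. With that number as a replicate block the region difference of the inhibitor effect on Abat was 0.42 (adjusted p = 0.0224), and no call of the 5 genes changed. The other limit is the brightness of the second probe sets of Slc32a1, Abat and Slc6a11, which were dim.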
